A study of Mus musculus with 8 samples.

Results

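A group of 9 genes that mark the early proximal tubule of the kidney was followed in mouse kidneys at embryonic day E13.5: Hnf4a, Lrp2, Cubn, Amn, Slc34a1, Slc3a1, Aqp1, Fbp1 and Ass1. They were found through the RefSeq accession that the scanner files give for each probe. Together they had 14 probes, of 41174 on the array, of which 25097 could be given one of 17305 gene symbols. Hnf4a was read by 3 probes, Lrp2 by 4 and each of the other genes by 1.

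The kidneys were whole organs dissected at E13.5 from mice of a mixed CD1 and C57BL/6 background. One group was labelled mutant, UB HDAC1,2-/-, and the other wild type. HDAC1 and HDAC2 are histone deacetylases, enzymes that remove acetyl groups from histones, and UB usually abbreviates ureteric bud in this field. The labels name neither the Cre driver nor how many embryos made up a sample. Each of 4 biological replicates put 1 mutant RNA against 1 wild type RNA on 2 two-colour Agilent arrays, with the dyes exchanged between them, so there were 8 arrays and 8 RNAs.

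The proximal tubule is the stretch of the nephron that takes back most of what the glomerulus filters. It takes up filtered proteins by endocytosis through the receptors megalin and cubilin, carries phosphate, amino acids and water through apical transporters, and makes glucose and arginine. HNF4A is a nuclear receptor transcription factor needed for proximal tubule differentiation in the mouse, and the first nephrons are still forming at this age.

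Several facts of the whole data set touch every value below. The direction of all ratios is not settled. By the dye labels a ratio is labelled mutant over labelled wild type, yet in the authors' deposited table of 496 entries all 309 that could be tied to a single probe had the opposite sign. Hdac2 (A_51_P116007), a gene named in the genotype, had log2 ratios of 0.60, 0.60, 0.74 and -0.61 in replicates 1 to 4, a mean of 0.33 ± 0.63 (SD, n = 4, limma adjusted p = 0.757). It was therefore above 0 in 3 replicates and below 0 in the last, and where its probe lies relative to the deleted part is not known; Hdac1 was not analysed here. Replicate 2 stood apart from the others. The SD of its log2 ratios over probes was 0.648, against 0.226 to 0.276 in the other 3, and 18.1% of its probes lay below -0.5 and 19.9% above 0.5. Replicates 1 and 2 were on slide 1 and replicates 3 and 4 on slide 2. On slide 1, 3.27% to 18.3% of the 153 negative control spots were flagged well above background, against 0% to 1.96% on slide 2. Because the kidneys were whole, fewer cells of a type and less RNA per cell cannot be told apart.

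The promoters of the genes were searched for the letters of 2 known regulators of proximal tubule genes, HNF1 and HNF4. In RefSeq's GRCm38.p6 windows, from 250 bases before to 50 after each start, the 9 genes had 10 windows. The HNF1 core GTTAAT, read on both strands, was in 3 of the 10 windows and in 7.1% of the 32851 promoters of the same length. The HNF4 core CAAAGTCCA, also on both strands, was in 1 of the 10 and in 0.475% of all promoters. The windows that held either core are shown, 5′ to 3′ on the plus strand, because they belong to the regulator Hnf4a itself and to the transporters whose ratios are described below. Capitals mark the matches, and a match is a run of letters, not a measured binding site.

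Hnf4a, second annotated start, chr2:163546905-163547204: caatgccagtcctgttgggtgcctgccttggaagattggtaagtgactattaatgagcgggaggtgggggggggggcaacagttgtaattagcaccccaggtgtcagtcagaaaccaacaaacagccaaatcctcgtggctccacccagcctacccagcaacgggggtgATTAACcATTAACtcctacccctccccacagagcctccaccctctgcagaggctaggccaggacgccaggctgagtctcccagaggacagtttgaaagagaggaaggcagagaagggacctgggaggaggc
Slc34a1, chr13:55399398-55399697: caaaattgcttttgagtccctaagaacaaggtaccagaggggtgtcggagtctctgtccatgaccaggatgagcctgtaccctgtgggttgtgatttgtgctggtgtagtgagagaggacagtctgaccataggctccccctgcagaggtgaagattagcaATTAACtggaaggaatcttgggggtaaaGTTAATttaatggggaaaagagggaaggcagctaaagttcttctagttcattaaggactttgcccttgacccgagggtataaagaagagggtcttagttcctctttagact
Slc3a1, chr17:85028097-85028396: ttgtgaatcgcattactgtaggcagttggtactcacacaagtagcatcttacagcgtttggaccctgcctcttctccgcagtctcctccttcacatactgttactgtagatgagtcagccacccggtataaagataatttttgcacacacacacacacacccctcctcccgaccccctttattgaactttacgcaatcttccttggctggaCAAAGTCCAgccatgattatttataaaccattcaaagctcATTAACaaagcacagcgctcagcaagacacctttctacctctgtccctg

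The Hnf4a and Slc34a1 windows each held the HNF1 core at 2 places. The Slc3a1 window held 1 copy of it and the 1 HNF4 core found. Both cores are short, and no match in the other windows says only that those letters were not there.

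Transcripts of all 9 genes gave signal at E13.5. A probe was counted as detected in a channel where the scanner software had flagged its signal as well above the local background. In the wild type channel, 7 of the 9 genes had a probe detected on all 8 arrays, and Cubn and Slc3a1 were each detected on 7. Of all probes on the array 76.4% were detected on all 8 wild type channels and 75% in all 16 channels. Of the 14 probes, 8 were detected in all 16 channels, a lower share than over all probes: 1 of Hnf4a, 2 of Lrp2, and those of Amn, Slc34a1, Aqp1, Fbp1 and Ass1. The remaining Hnf4a probes were detected in 13 and 4 channels and the remaining Lrp2 probes in 14 and 7. The arrays hold a single age, so they show presence at E13.5 and not when the signal began.

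A second rule, a signal above the 95th percentile of the negative control spots of the same channel, separated the slides. On slide 2, 13 of the 14 probes passed it in all 8 channels, the exception being Hnf4a A_52_P69656 with 7. On slide 1, passes in all 8 channels were limited to both brighter Lrp2 probes, Aqp1 and Ass1. Hnf4a A_51_P198473 and Fbp1 passed in 7 of 8 there, Amn and Slc34a1 in 6, Cubn and Slc3a1 in 4, and Lrp2 A_52_P460882 in 2. The negative control 95th percentile itself ran from 9.85 to 223 signal units on slide 1 and from 2.71 to 8.12 on slide 2. The detection of Lrp2, Aqp1 and Ass1 therefore held under both rules on every array, whereas that of Cubn and Slc3a1 held under both in every channel on slide 2.

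**Figure D1:**
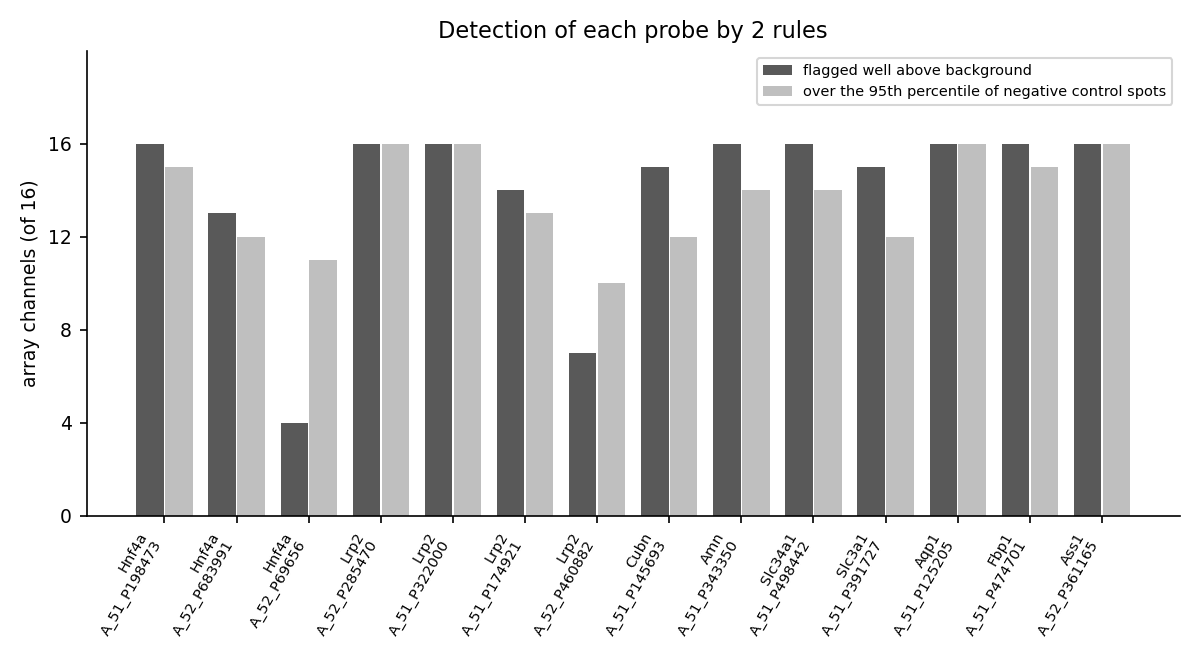
Number of the 16 array channels (vertical axis, bars from 0) in which each of the 14 probes (horizontal axis) was detected, by the scanner's flag (dark) and by exceeding the 95th percentile of the negative control spots (light). The 2 brighter Lrp2 probes, Aqp1 and Ass1 reach 16 under both rules, and Hnf4a A_52_P69656 goes from 4 by the flag to 11 by the negative controls.

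No probe of the 9 genes changed between the labelled genotypes after adjustment over all probes. The limma test, with Benjamini-Hochberg adjustment over 39515 probes kept, called 6 probes higher in the labelled mutant (0.0152% of those tested) and 1 lower (0.00253%). None was among the 13 kept probes of these genes. Without adjustment, 5 of the 13 had a limma p under 0.05. Those were Lrp2 A_52_P285470, Lrp2 A_52_P460882 and Ass1 on the lower side, where 2.86% of all probes were, and Cubn and Aqp1 on the higher side, where 3.15% were. In all 4 replicates 4 of the 13 were above 0 and 4 below, against 10.7% and 5.66% of all probes. On all 8 arrays 2 of the 13, Cubn and Aqp1, were above 0 and 3 of them, Lrp2 A_52_P285470, Amn and Ass1, below, against 2.25% and 1.06%. The genes were chosen with earlier results of these data known, so these shares are no test of them. The median of the 13 log2 ratios was -0.07, with 5 above 0 and 8 below. An exact sign-flip test over 4 replicates can give no p below that of 2 of 16 sign patterns, which is above 0.05. The p-values here cover the spread between these 4 replicates, and the number of arrays limits the precision.

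**Figure D2:**
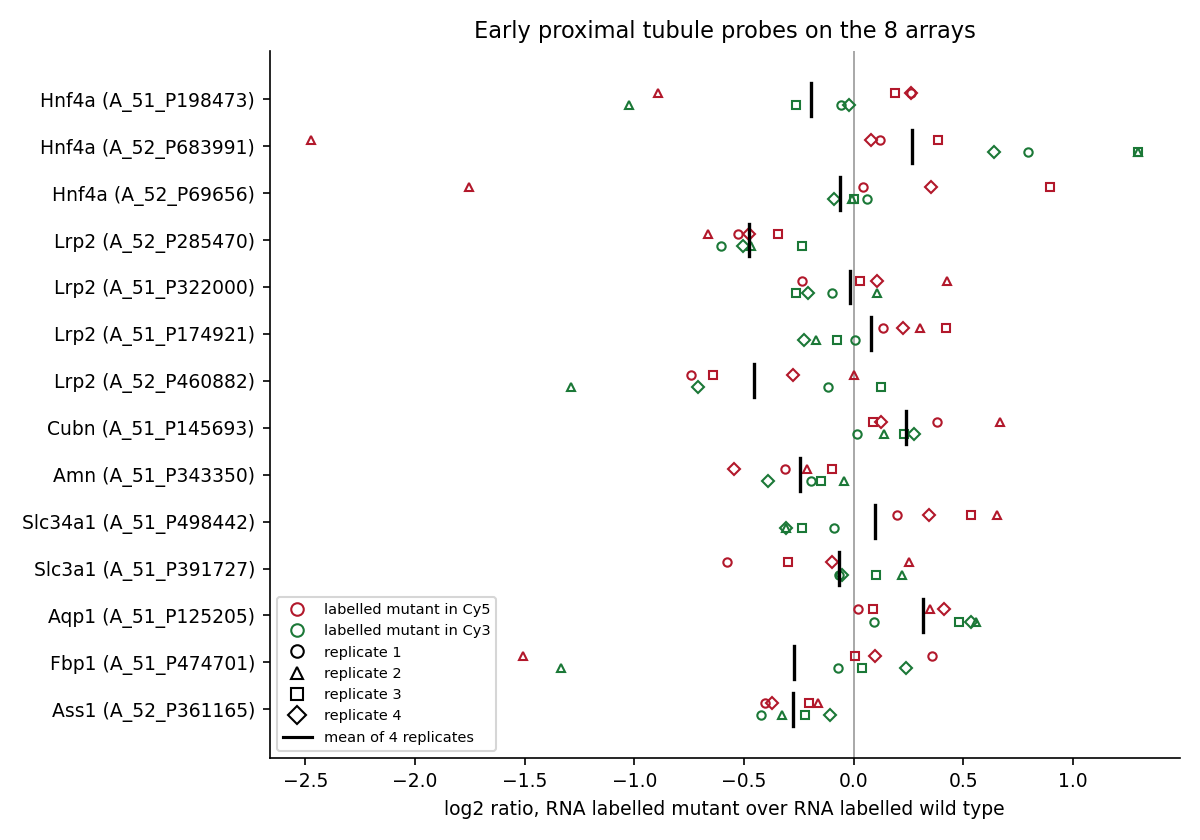
Log2 ratio, RNA labelled mutant over RNA labelled wild type (horizontal axis), of each of the 14 probes (vertical axis) on each of the 8 arrays, with colours for the dye of the labelled mutant, symbols for the replicates and a black bar for the mean of the 4 replicates. Lrp2 A_52_P285470, Amn and Ass1 lie below 0 on all 8 arrays, Cubn and Aqp1 above 0 on all 8, and the colours of Slc34a1 fall on opposite sides of 0.

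Hnf4a, the transcription factor of the group, did not pass the test with either probe tested, and its probes did not point the same way. The bright probe, A_51_P198473, had processed signals of 1250, 836, 1110 and 956 in wild type replicates 1 to 4. In the labelled mutant it had 1340, 430, 1090 and 1040. As means of 2 arrays, mutant replicate 2 was the lowest of the 8 RNAs, and without it the ranges of the groups overlapped. The log2 ratios were 0.10, -0.96, -0.04 and 0.12, with a mean of -0.19 ± 0.52 (SD, n = 4; 95% interval -0.688 to 0.302; limma adjusted p = 0.758). Both arrays of replicate 2 gave a low ratio, but only the array with the mutant in Cy5 had a low mutant signal. With the mutant in Cy5 both RNAs, at 119 in the mutant and 221 in the wild type, were below every array value of the other replicates, which ran from 851 to 1389. With the mutant in Cy3 both were above that range, at 1554 and 3166. On the array with the mutant in Cy5, the wild type signal was below the negative control 95th percentile of its channel, 223. The mutant signal was above that of its own channel, 49.7. Without replicate 2 the mean was 0.06.

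The second Hnf4a probe, A_52_P683991, was dim. Its wild type signals were 31.9, 71.6, 42.2 and 38.2, and its mutant signals 43.8, 47.6, 75.5 and 49.0. The log2 ratios, 0.46, -0.59, 0.84 and 0.36, averaged 0.27 ± 0.61 (limma adjusted p = 0.757). Replicate 2 had the lowest ratio, from the highest wild type signal and a mutant signal within the range of the others. Without replicate 2 the mean was 0.55 (limma adjusted p = 0.324) and without replicate 3 it was 0.08. The size of the ratio differed with the dye. Its mean was -0.47 over the arrays with the mutant in Cy5 and 1.01 over those with it in Cy3. The ratio was above 0 on 7 arrays and below 0 on 1, the replicate 2 array with the mutant in Cy5. After normexp background correction and loess the mean was -0.09. In replicate 2 the arrays opposed each other, at -2.48 and 1.30. The third probe, A_52_P69656, was detected in either channel on 3 arrays and was not tested. Its log2 ratios were 0.05, -0.88, 0.45 and 0.13, again with replicate 2 lowest. The wild type signal of replicate 2, 61.5, was the highest of the 4 as a mean of arrays at 311 and 12.2. On the latter array neither RNA was detected.

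Of the endocytic receptor genes, Lrp2 was below 0 on all 8 arrays with one probe, which had the lowest p of the 13, and near 0 on average with another of the same accession. LRP2, or megalin, is the large scavenger receptor of the apical membrane. Probe A_52_P285470 had wild type signals of 1250, 913, 1280 and 669 and mutant signals of 844, 617, 1040 and 476. In every replicate the mutant was the lower of the pair, though the groups overlapped: mutant replicate 3 was above wild type replicates 2 and 4. The log2 ratios were -0.57, -0.57, -0.29 and -0.49, a mean of -0.48 ± 0.13 (SD, n = 4; 95% interval -0.720 to -0.238), or 1.39-fold lower. The limma adjusted p was 0.444, and the exact sign-flip p was the smallest that 4 replicates allow. With the replicate number as a block the adjusted p was 0.0628. The mean was -0.57 within slide 1 and -0.39 within slide 2.

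Lrp2 A_51_P322000 was of similar quality, detected in all 16 channels, and did not show this. Its wild type signals of 974, 663, 836 and 640 stood beside mutant signals of 868, 797, 772 and 618. The log2 ratios of -0.17, 0.27, -0.12 and -0.05 averaged -0.02 ± 0.19 (SD, n = 4; 95% interval -0.289 to 0.254; limma adjusted p = 0.954). Both groups covered the same range, and 4 arrays were above 0 and 4 below. The probes A_52_P285470 and A_51_P322000 thus disagreed, and their difference was not tested.

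The dimmer Lrp2 probes were split in the same way. A_51_P174921 had log2 ratios of 0.07, 0.06, 0.17 and 0.00, a mean of 0.08 ± 0.07 (SD, n = 4; limma adjusted p = 0.762), from wild type signals of 52.4 to 198 and mutant signals of 54.8 to 208. Its mean was 0.27 with the mutant in Cy5 and -0.12 with the mutant in Cy3. A_52_P460882 had wild type signals of 24.8, 22.0, 30.0 and 18.0 and mutant signals of 18.4, 11.7, 25.1 and 12.8, and was detected on 5 arrays in the wild type and 2 in the mutant channel. Its log2 ratios of -0.43, -0.65, -0.26 and -0.49 averaged -0.46 ± 0.16 (SD, n = 4; limma adjusted p = 0.523). After normexp and loess its mean was -0.13. One of its arrays, in replicate 2, carried a ratio of exactly 0.

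Lrp2 was the 1 gene of the 9 in the authors' deposited table of log2 ratios, with an entry of 0.522. The sign-turned mean of the dim probe A_52_P460882 over the 7 arrays without the exact 0 was the same to within 7e-04, its own mean being -0.52. The bright probe A_52_P285470 lay 0.043 away. Across that table's single-probe entries, 253 equalled the sign-turned mean within 0.01 once exact 0 ratios were left out, and 248 did when they were kept. The deposited Lrp2 value thus matched a probe that was detected on 2 of 8 arrays in the labelled mutant channel.

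Cubn encodes cubilin, the peripheral membrane receptor that works with megalin, and amnionless, encoded by Amn, anchors cubilin in the membrane. The Cubn signals were 93.1, 46.6, 108 and 72.8 in the wild type and 107, 61.6, 121 and 83.7 in the labelled mutant. The mutant was higher in each replicate, by 0.20, 0.40, 0.16 and 0.20 on the log2 scale, a mean of 0.24 ± 0.11 (SD, n = 4; 95% interval 0.00589 to 0.473). This did not pass the test (limma adjusted p = 0.757), the ranges of the groups overlapped, and the mean was 0.10 after normexp and loess. In replicate 2, the array with the mutant in Cy5 had a ratio of 0.67 from signals of 40.2 (mutant) and 25.3 (wild type). Both were below the negative control 95th percentile of their channel, 49.7 and 223, and the wild type was not detected. Amn ran the other way. Its signals were 269, 102, 258 and 253 in the wild type and 226, 92.9, 236 and 183 in the mutant, with replicate 2 low in both. The log2 ratios of -0.25, -0.13, -0.12 and -0.47 averaged -0.24 ± 0.16 (SD, n = 4; limma adjusted p = 0.757), and -0.15 after normexp and loess. The receptor complex therefore had Amn and 2 of the 4 Lrp2 probes below 0 in every replicate. Cubn and the dim Lrp2 probe A_51_P174921 were above 0 in every replicate, the latter barely so in replicate 4. None of them passed the adjusted threshold.

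**Figure D3:**
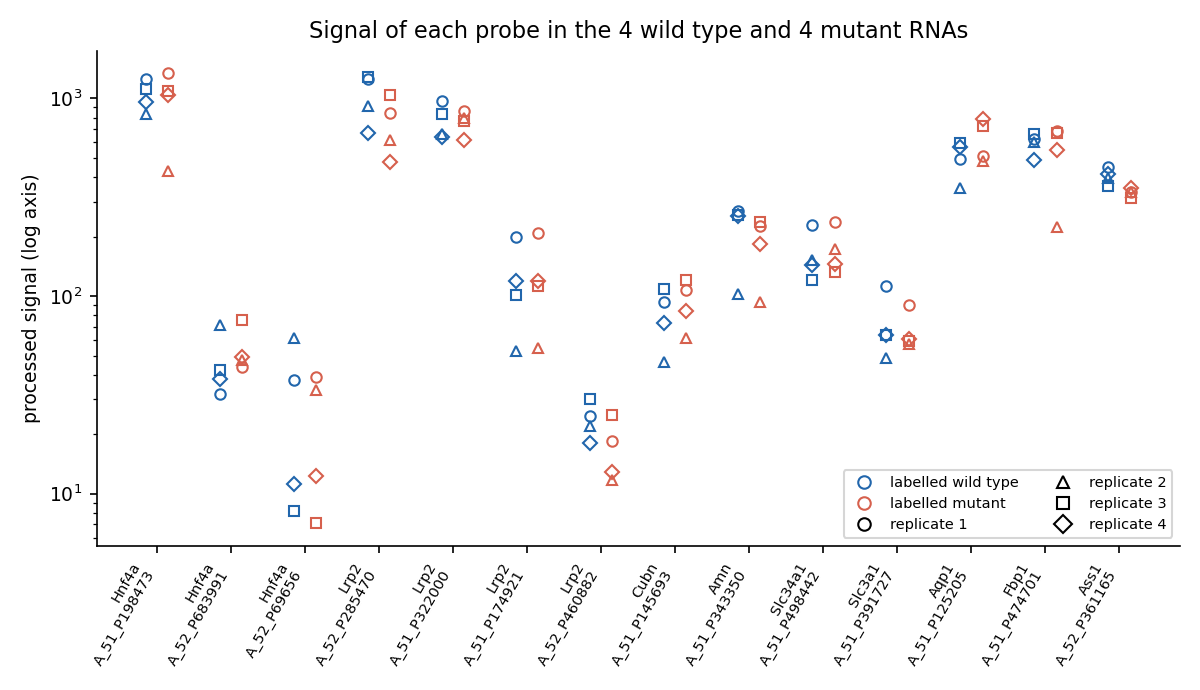
Processed signal on a log axis (vertical) of each of the 14 probes (horizontal axis) in the 4 wild type and 4 labelled mutant RNAs, each point being the geometric mean of 2 arrays and each symbol a replicate. For Ass1 the wild type RNAs, at 362 to 448, all lie above the mutant RNAs, at 312 to 353, and for Fbp1 and Hnf4a A_51_P198473 the mutant RNA of replicate 2 lies below all others.

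The transporter genes gave small ratios. Slc34a1 encodes the sodium-phosphate cotransporter NaPi-IIa, which takes phosphate from the filtrate. Its signals were 229, 153, 120 and 143 in the wild type and 238, 172, 133 and 145 in the labelled mutant, and the log2 ratios averaged 0.10 ± 0.08 (SD, n = 4; limma adjusted p = 0.757). The sign followed the dye on every array. With the mutant in Cy5 the ratios were 0.20, 0.65, 0.54 and 0.34, and with the mutant in Cy3 they were -0.09, -0.31, -0.24 and -0.31. The same pattern was found in 2.2% of all probes, and the averages of 0.43 and -0.24 in the 2 orientations were each larger than the mean ratio of the genotypes. Slc3a1 encodes rBAT, the heavy subunit of the transporter for cystine and dibasic amino acids. Its signals were 112, 48.5, 63.4 and 63.7 in the wild type and 89.7, 57.1, 59.1 and 60.4 in the mutant. The replicates disagreed in sign, at -0.32, 0.24, -0.10 and -0.08, and the mean was -0.07 ± 0.23 (SD, n = 4; 95% interval -0.357 to 0.226; limma adjusted p = 0.83).

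Aqp1, the water channel of the proximal tubule and thin descending limb, was above 0 on all 8 arrays. Its signals were 491, 352, 595 and 569 in the wild type and 510, 482, 725 and 789 in the labelled mutant. Replicate 1 showed little difference and the others more, with log2 ratios of 0.06, 0.45, 0.28 and 0.47. The mean was 0.32 ± 0.19 (SD, n = 4; 95% interval 0.0456 to 0.587; limma adjusted p = 0.757), or 1.25-fold higher, and it was 0.20 after normexp and loess. Red blood cells and endothelium also make AQP1. Of 13 erythroid markers 12 were detected on all 8 arrays in one channel or both, and all 14 endothelial ones were, against 81.5% of all probes. The marker probes counted had all passed the detection filter, whereas the 81.5% is over all probes, so the shares are not alike. Of the erythroid markers 3 had a log2 ratio above 0 and 10 below, with a median of -0.09, and their summed level ran from 61.7 to 179 times the channel's 75th percentile in the wild type and from 94.8 to 140 in the mutant. Of the endothelial markers 12 were above 0 and 2 below, with a median of 0.06, and their summed level ran from 24.5 to 32.5 and from 26.6 to 31.6. The part of either in the Aqp1 ratio was not tested.

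Of both metabolic genes, Ass1 had groups that did not overlap and Fbp1 had a ratio in replicate 2 far from those of the other replicates. Ass1 encodes argininosuccinate synthase, which works in arginine synthesis. Its signals were 448, 397, 362 and 416 in the wild type and 336, 335, 312 and 353 in the labelled mutant, so the lowest wild type RNA was above the highest mutant RNA. It was the 1 probe of the 13 whose groups did not overlap in this direction, as 0.447% of all probes did not, and none of the 13 was separated the other way, as 0.422% were. The log2 ratios were -0.41, -0.25, -0.21 and -0.24, a mean of -0.28 ± 0.09 (SD, n = 4; 95% interval -0.505 to -0.0509), or 1.21-fold lower. The limma adjusted p was 0.757. The mean was -0.28 after normexp and loess as well, -0.33 within slide 1 and -0.23 within slide 2.

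Fbp1 encodes fructose-1,6-bisphosphatase, an enzyme of glucose synthesis. In the wild type its signals were 620, 600, 657 and 485, and in the labelled mutant 684, 224, 666 and 545. The log2 ratios were 0.14, -1.42, 0.02 and 0.17, a mean of -0.27 ± 0.77 (SD, n = 4; limma adjusted p = 0.758; exact sign-flip p = 1). Both arrays of replicate 2 gave a low ratio, from different signals. With the mutant in Cy5, both RNAs were below every array value of the other replicates (423.5 to 750.3), at 77.6 in the mutant and 221 in the wild type. With the mutant in Cy3 the mutant signal, 647, was within that range and the wild type signal, 1635, was above it. On the array with the mutant in Cy5, the wild type signal was below the negative control 95th percentile of its channel, 223. The mutant signal was above that of its own channel, 49.7. Without replicate 2 the mean was 0.11.

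The ratio of replicate 2 was the lowest of the 4 for Fbp1 and for all 3 Hnf4a probes, and it was above 0 for Cubn, Aqp1, Slc34a1 and Slc3a1. A log2 ratio below -0.9 in replicate 2 with the other replicates within 0.2 of 0 was found in 1233 of 39352 probes, or 3.13%. Liver also makes HNF4A, FBP1 and ASS1, and some markers of liver and gut had low ratios in that replicate. Of the 14 liver markers 8 were above 0 and 6 below there, with a median of 0.14. Among those below, Ttr, the blood carrier of thyroxine, had a log2 ratio of -3.27 there, Tdo2, a tryptophan-degrading enzyme, -1.57, Apob, a lipoprotein component, -1.57. Of the gut markers, Fabp2, an intestinal fatty acid binding protein, had -1.05. In replicate 2, 4 of 14 liver markers, 2 of 4 gut markers and 6 of 13 erythroid markers lay below -0.5, as did 18.1% of all probes. In replicate 4, 3 erythroid markers did, and otherwise none of these markers did in replicates 1, 3 and 4. The main plasma protein gene Alb had -0.17 in replicate 2, Afp had 0.60 and Apoa2 had 1.58. A summed level is carried most by the brightest probes of a list, so it can differ in direction from the marker counts. The summed level of the liver list was 4.56 in wild type replicate 2 and 2.48 in its mutant partner, against 1.65 to 2.36 in the other wild type RNAs and 1.80 to 2.46 in the other mutant RNAs. For gut it was 2.43 and 1.26, against 0.823 to 1.1 and 0.837 to 1.11. Their part in the Hnf4a and Fbp1 values was not tested.

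**Figure D4:**
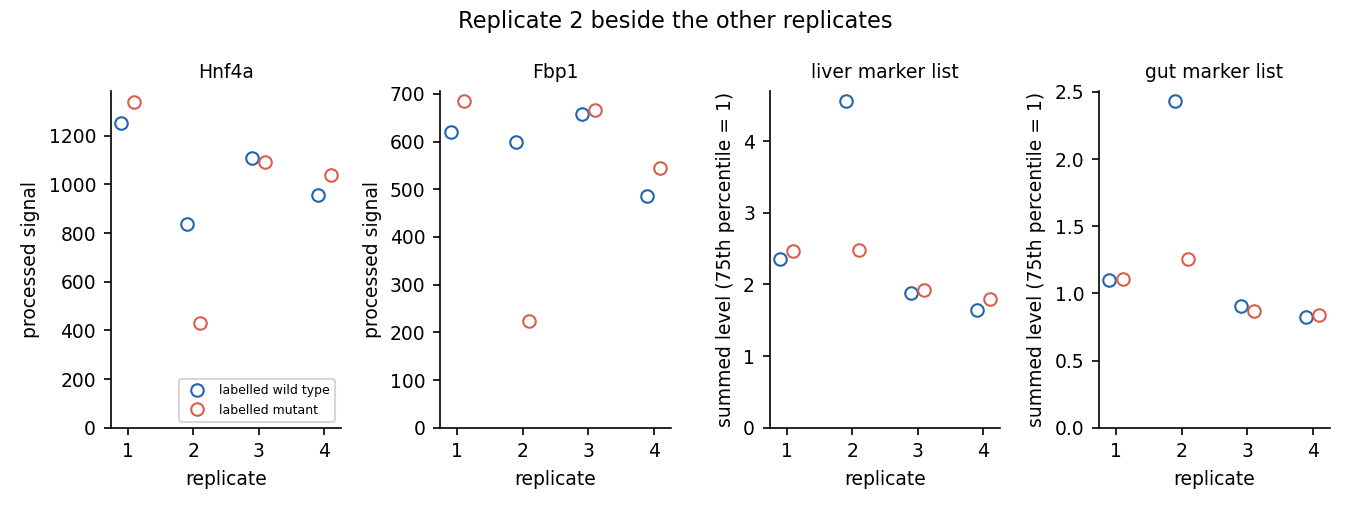
Processed signal of Hnf4a (A_51_P198473) and of Fbp1, and summed level of the liver and the gut marker lists in units of the channel's 75th percentile (vertical axes, from 0), in the labelled wild type and mutant RNA of replicates 1 to 4 (horizontal axes). As means of 2 arrays, the mutant RNA of replicate 2 has the lowest signal of Hnf4a, 430, and of Fbp1, 224. The wild type RNA of replicate 2 has the highest summed level of liver, 4.56, and of gut markers, 2.43. The sums are weighted to the brightest probes, and 8 of the 14 liver markers had a log2 ratio above 0 in replicate 2.

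The genes were also compared by their levels in the RNAs. The 8 RNAs share arrays in pairs. Over them, the log2 levels of Hnf4a (A_51_P198473) and of Fbp1 had a Pearson correlation of 0.912, the highest of the 36 gene pairs. The RNAs of replicate 2 described above are among the 8. Hnf4a had a level of -1.575 in mutant replicate 2 and of -0.85 to -0.32 in the other RNAs, so that RNA weighs heavily in its correlations. The correlation was 0.767 for Slc34a1 with Slc3a1, 0.658 for Hnf4a with Amn and -0.778 for Cubn with Ass1, the lowest. Among 17039 genes, those whose level was most like that of Hnf4a were Cldn13, a claudin, Apoa5, an apolipoprotein made in the liver, and the olfactory receptor gene Olfr1366, each with a correlation of 0.994. For Lrp2 (A_52_P285470) they were Tpr, a nuclear pore protein, at 0.973, Bod1l at 0.948 and the kinase gene Nek1 at 0.931. None of these 6 is a member, and with 8 RNAs such values describe these samples.

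Among other genes of the proximal tubule none passed the adjusted threshold. Over all probes 54% of the log2 ratios were above 0 and 46% below, and 3.15% were higher and 2.86% lower at an unadjusted limma p under 0.05. Of 9 transcription factors tested 2 had a log2 ratio above 0 and 7 below, with a median of -0.11, beside a median of 0.02 over all probes, and 2 were lower at an unadjusted p under 0.05. Their medians by replicate were -0.18, -0.03, -0.08 and 0.12, so replicate 4 was on the other side of 0. Maf had -0.45 ± 0.20 (SD, n = 4; limma adjusted p = 0.587), and Hnf4g, the close relative of Hnf4a, had 0.13 ± 0.13. Of 8 genes of endocytic uptake 4 were above 0 and 4 below, with a median of -0.01 and 1 lower at an unadjusted p under 0.05. The megalin chaperone gene Lrpap1 had -0.11 ± 0.11, the endosomal chloride-proton exchanger gene Clcn5 0.12 ± 0.19, and Ctns, the lysosomal cystine transporter gene, -0.26 ± 0.15 (limma adjusted p = 0.757).

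Of 27 transporter genes 19 were above 0 and 8 below, with a median of 0.08 and 3 at an unadjusted limma p under 0.05, all higher. These were the efflux pump gene Abcc4 at 0.32 ± 0.08 (adjusted p = 0.693), the amino acid transporter gene Slc7a8 at 0.37 ± 0.28 and the organic anion transporter gene Slco4c1 at 0.57 ± 0.58. The brush border enzyme list had 12 genes tested, not all of which encode brush border enzymes. Of the 12, 8 were above 0 and 4 below, with a median of 0.12. At an unadjusted limma p under 0.05 there were 4, all higher, against 3.15% of all probes. As the list was chosen with earlier results of these data known, this share is a description. The peptidase genes Dpp4 and Enpep had the highest values, 0.77 ± 0.25 (SD, n = 4; limma adjusted p = 0.265) and 0.84 ± 0.35 (limma adjusted p = 0.345), followed by Ggt1 at 0.42 ± 0.22 and Anpep at 0.27 ± 0.17. All 4 were above 0 in each replicate. In the authors' deposited table Dpp4 had entries of -0.774 and -0.936 and Enpep one of -0.838, opposite in sign to the scanner ratios like the Lrp2 entry. Of 26 metabolic genes, Ass1 among them, 13 were above 0 and 13 below, with a median of 0.01 and, at an unadjusted p under 0.05, 1 higher and 2 lower. Kap, the androgen-regulated kidney protein gene, had -0.36 ± 0.14 (adjusted p = 0.684) and the glutathione transferase gene Gsta2 0.38 ± 0.31 (adjusted p = 0.757).

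Markers of other kidney cell types were read on the same arrays, and 1 of them, Cdh16, passed the adjusted threshold. Of 17 ureteric bud markers 14 were above 0, with a median of 0.41, and 11 had an unadjusted limma p under 0.05, all higher, against the 3.15% of all probes. This list, like the others, was chosen with earlier results of these data known, so that share is no test of it. Cdh16, a kidney cadherin, passed at 1.496 ± 0.16 (SD, n = 4; limma adjusted p = 0.0420), while the transcription factor gene Tfcp2l1 had 1.13 ± 0.08 (adjusted p = 0.0576) and the keratin gene Krt18 1.14 ± 0.20 (adjusted p = 0.0984). Their summed level ran from 39.9 to 44.5 in the wild type and from 56.7 to 80.1 in the labelled mutant. Of 19 genes of the renal vesicle and S-shaped body, the first stages of the nephron, 15 were above 0, with a median of 0.17 and 4 higher at an unadjusted p under 0.05. Wnt4, the signal that starts nephron epithelium, had 0.49 ± 0.30 (adjusted p = 0.684), the Notch target gene Hes5 0.58 ± 0.44 and Pou3f3, a tubule transcription factor gene, 0.41 ± 0.35. Of 9 podocyte genes 7 were below 0, with a median of -0.10, and 3 were lower at an unadjusted p under 0.05, among them Wt1 at -0.29 ± 0.11 and Magi2 at -0.27 ± 0.07 (adjusted p = 0.757 for both). Of 9 genes of the loop of Henle and distal tubule 4 were above 0 and 5 below, with a median of -0.01. How far the makeup of the kidneys entered the values of the 9 genes was not tested.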

How the data were processed

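Total RNA was prepared from E13.5 kidneys with a silica column kit, per the labels' protocols. Arrays were read with Feature Extraction 10.5.1.1, per the file headers. The deposited files give each spot's processed intensity in both channels, background-subtracted and dye-normalized, the log10 ratio of Cy5 over Cy3, and flags. The authors also deposited a table of log2 ratios, whose construction is not given in the sources used here.

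From the 45018 spots, 1639 control spots and outlier flags were left out and spots of a probe averaged. Log10 ratios were turned to log2, labelled mutant over labelled wild type, and both dye orientations of a replicate averaged. Probes well above background in either channel on 4 or more of 8 arrays, with 3 or more replicates, were kept (39515 of 41174) and tested against 0 with limma 3.58.1 in R 4.3.3, Benjamini-Hochberg adjusted at 0.05, two-sided. Signals are geometric means over 2 arrays; levels are log2 signals minus the channel's 75th percentile. Levels of different probes cannot be compared, and the summed level of a list is weighted to its brightest probes. No spot was saturated. The test was run first on simulated data.

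Symbols came from RefSeq accessions through the GRCm38.p6 tables. Some list genes are not reported here. All member probes were named, from each other list up to 3 genes of smallest p plus any that passed, and for Hnf4a and Lrp2 the 3 genes most alike in level; Apoa2, Alb, Ttr, Tdo2, Apob, Fabp2 and Anpep were added after their values were seen. Each list gene is read by 1 probe. Other probes of a list gene, where there are any, enter no list count or median and may differ. Members and lists were chosen with earlier results of these data known. RNAs of one replicate number share arrays, and their levels deviated together (correlations 0.572 to 0.78). Alternatives were other normalizations, single dye orientations, slides, left-out replicates, blocks, array weights and filters.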

Additional observations from a re-analysis of the deposited data

Results flagged for a closer look

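Among 42 groups of 4 values examined (log2 ratios and levels of the member probes), 6 held a sample far from the other 3, where chance gives about 5% of groups; 3 of the 6 were in replicate 2. Over all probes, 11.5% of 39352 had such a replicate in their log2 ratio, and it was replicate 2 for 3737 of them, against 289, 141 and 362 for replicates 1, 3 and 4.

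The log2 ratio of Hnf4a (A_51_P198473) was -0.96 in replicate 2 and between -0.04 and 0.12 in the others, and that of Fbp1 was -1.42 there and between 0.02 and 0.17 in the others. Ass1 had a log2 ratio of -0.41 in replicate 1 and between -0.25 and -0.21 elsewhere. In the wild type RNA, the log2 level of Lrp2 (A_52_P285470) was -1.36 in replicate 4 against -0.49 to -0.37, that of Amn was -3.66 in replicate 2 against -2.76 to -2.64, and that of Slc3a1 was -3.90 in replicate 1 against -4.76 to -4.70.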

How the results depend on the processing

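No probe of the 9 genes passed the adjusted threshold under any alternative run; the lowest adjusted p was 0.0628, for Lrp2 A_52_P285470 with the replicate block. That probe kept its sign throughout, from -0.57 to -0.38, as did Lrp2 A_52_P460882 (-0.54 to -0.13), Cubn (0.10 to 0.31), Amn (-0.30 to -0.15), Aqp1 (0.20 to 0.42) and Ass1 (-0.33 to -0.23). In all, 198 member ratios under an alternative kept their sign and side of the threshold and 16 reversed; the cause was not tested. Hnf4a A_51_P198473 reversed to 0.0427 within slide 2 and ranged from -0.30 to 0.0621 with 1 replicate left out, positive without replicate 2. Hnf4a A_52_P683991 reversed to -0.0889 with normexp and loess, -0.47 with the mutant in Cy5 alone and -0.0654 within slide 1, and ranged from 0.08 without replicate 3 to 0.55 without replicate 2. Lrp2 A_51_P322000 reversed to 0.0812 with the mutant in Cy5 alone and 0.0495 within slide 1, and ranged from -0.11 to 0.033 with 1 replicate left out. With the mutant in Cy3 alone, Lrp2 A_51_P174921 reversed to -0.12, Slc34a1 to -0.24 and Slc3a1 to 0.0494; Slc3a1 ranged from -0.17 to 0.0199 with 1 replicate left out. Fbp1 reversed to 0.0942 within slide 2 and 0.0288 with array weights, and ranged from -0.42 to 0.11 with 1 replicate left out.

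The 5 member probes at an unadjusted p under 0.05 became 3 with normexp and loess or the mutant in Cy5 alone, 0 within slide 1, and 2 to 7 with 1 replicate left out (2 without replicate 3 or 4, 3 without replicate 1). The counts over all probes moved more. Called higher (6) and lower (1) after adjustment were 1 and 0 with normexp and loess, 0 and 1 with the mutant in Cy5 alone, 28 and 8 with it in Cy3 alone, 0 and 0 within slide 1, 104 and 348 within slide 2, 0 and 1 with slide as a block, 96 and 37 with the replicate block, and 270 and 192 with array weights. They were 1 and 1 with no filter or 1 probe per gene, and 13 and 1 with detection required on all 8 arrays. With 1 replicate left out they were 0 to 9 and 0 to 1, both 0 without replicate 1, 3 or 4. At an unadjusted p under 0.05, higher (1243) and lower (1132) were 3777 and 2308 with the mutant in Cy3 alone, 397 and 361 within slide 1, 1560 and 3105 within slide 2, 3685 and 3771 with array weights, and 446 to 1511 and 459 to 1617 with 1 replicate left out. The channels that detected Hnf4a A_52_P69656 went from 4 to 11 under the negative control rule, and the 14 levels without dye normalization moved by less than the replicate SD. That dim probe was tested only with no filter, and A_52_P683991, A_51_P174921 and A_52_P460882 had no value where detection was required on all 8 arrays. Leaving out exact 0 ratios was chosen after seeing the data.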

Other observations

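The 7 probes that passed the adjusted threshold, named after their values were seen, included none of the listed proximal tubule genes. Fxyd4, a regulator of the sodium pump found in collecting duct, had a log2 ratio of 1.73 ± 0.15, Cdh16 of 1.496 ± 0.16 and the glutathione transferase gene Gsta3 of 1.56 ± 0.15 (SD, n = 4; limma adjusted p 0.033, 0.042 and 0.033). Both probes of Mia were among them, at 1.495 ± 0.12 and 1.81 ± 0.06, as was a probe with no symbol. The 1 lower probe, of BC048679, had -2.90 ± 0.27 (adjusted p = 0.0194).

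Slc4a4, the basolateral sodium-bicarbonate cotransporter gene of the proximal tubule, had an entry of 2.526 in the authors' deposited table. The probe tested here for it, A_51_P273800, had a log2 ratio of -0.04 (limma adjusted p = 0.868).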
